A study of Mus musculus with 2 samples.

Results

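Chitinase-like genes were followed in leukemia-initiating cells of a mouse acute myeloid leukaemia. The members are 5 genes: Chi3l3, Chi3l4 and Chi3l1, which the newer nomenclature calls Chil3, Chil4 and Chil1, and Chit1 and Chia (Chia1). They were taken by gene name from the array files, with every probe, which gave 5 of 27337 genes and 6 probes of 1 spot each. The group was chosen by the measured log2 differences of some of its members between the same arrays in an earlier look at these data, so the members' differences are given below as a description, with no test.

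The data were 2 one-colour arrays, 1 of Jam3-null cells and 1 of wild-type (WT) cells, and each label names 3 mice. All cells carried the MLL-AF9 fusion oncogene marked by YFP and were sorted from the bone marrow of female mice as Mac-1-positive and c-Kit-positive. Jam3 encodes a junctional adhesion protein of the immunoglobulin superfamily. How Jam3 was removed, in which cells, at what age the mice were, and whether their RNA was pooled are not given in the sources used here. With 1 array per genotype no replicate check exists, p-values are not given, and precision is limited by the number of arrays.

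Chitinases cut chitin, the polymer of N-acetylglucosamine found in fungal walls and in the shells and eggs of many parasites. Mammals make a pair of active chitinases, chitotriosidase, encoded by Chit1 and known from human macrophages, and acidic mammalian chitinase, encoded by Chia in stomach and lung. The chitinase-like proteins have the same fold but lack the catalytic residue and act as lectins. In the mouse, Chi3l3 (Ym1) is abundant in neutrophil precursors of the bone marrow and in alternatively activated macrophages, Chi3l4 (Ym2) is its close relative, and Chi3l1 (BRP-39, the mouse counterpart of YKL-40) is made by neutrophils and macrophages.

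The share of the 43379 non-control spots that stood well above background was 55.0% for the Jam3-null array and 61.8% for the WT array. Values below are processed signals, in scanner intensity units after background subtraction, and log2 differences are Jam3-null minus WT after each array was scaled to its 75th percentile. Both probes of Jam3 were below background on both arrays (28.1 Jam3-null and 5.09 WT for the brighter), so Jam3 did not check the labels. Of the genes used in the sort, Kit had signals of 1237 in Jam3-null cells and 1244 in WT cells, whereas Itgam, which encodes the Mac-1 chain, had 3703 and 302 in the same order, a log2 difference of 3.71. The cells were measured in bulk, so fewer cells of a type and less RNA per cell cannot be told apart.

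Of the 5 members, 3 were well above background on both arrays, and all 3, the lectins Chi3l3, Chi3l4 and Chi3l1, were at least 2-fold higher on the Jam3-null array. Among all 14361 genes measured on both arrays, the share at least 2-fold higher on the Jam3-null array was 10.3%, and the share lower by as much was 8.59%. These shares are the background, and nothing is read from the members' count, since the members were chosen on this contrast. Of the active chitinases, Chit1 was seen on the Jam3-null array alone, and Chia on neither array. The chitinase-like relatives Chi3l7 and BC051070, described below, were in the same states in that order. The median difference of the 3 lectins was 6.22, against -0.07 over all genes measured on both arrays.

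Chi3l3, the major lectin of the group in mouse marrow, was read by a probe on the minus strand of chromosome 3, 105950485 to 105950544 (mm9), at base 1466 of its transcript. Its signal was 216739 ± 21700 in Jam3-null cells and 18143 ± 1810 in WT cells, where ± is the scanner software's error of the spot. It was far above background on both arrays, and neither spot was saturated. The log2 difference was 3.67 ± 0.20, which is 12.8-fold, and ranked 130 of 14361. The error covers the measurement of a spot and leaves out the spread between leukaemias and between mice.

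Chi3l4, the near copy of Chi3l3, was read by a probe at chromosome 3, 106006764 to 106007043 (mm9), minus strand. The probe has 60 bases and its target covers 280 bases of the genome, so the target is interrupted there. Its signal was 96673 ± 9670 in Jam3-null cells and 1386 ± 139 in WT cells. The log2 difference was 6.22 ± 0.20, or 74.6-fold, rank 14 of 14361. The array files list the transcripts of both Chi3l4 and Chi3l3 for this probe, so the RNAs of these paralogs cannot be told apart in its signal. The Chi3l3 probe lists no Chi3l4 transcript, and its log2 difference lay 2.55 ± 0.29 below that of the Chi3l4 probe, so both probes did not report 1 shared ratio.

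Chi3l1, the counterpart of human YKL-40, lies on another chromosome, and its probe covers chromosome 1, 136086448 to 136086507 (mm9), plus strand, at transcript base 1528. Its signal was 7892 ± 789 in Jam3-null cells and 113 ± 11.7 in WT cells. The WT value was dim but well above background, with a raw mean of 169 over a local background of 43.5. The log2 difference was 6.22 ± 0.21, or 74.6-fold, rank 13 of 14361. After normexp background correction, whose offset pulls dim values together, it was 5.60, or 48.3-fold. Chi3l1 and Chi3l4 differed from each other by 0.00 ± 0.29 in this log2 difference, while Chi3l1 exceeded Chi3l3 by 2.55 ± 0.29.

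**Figure D1:**
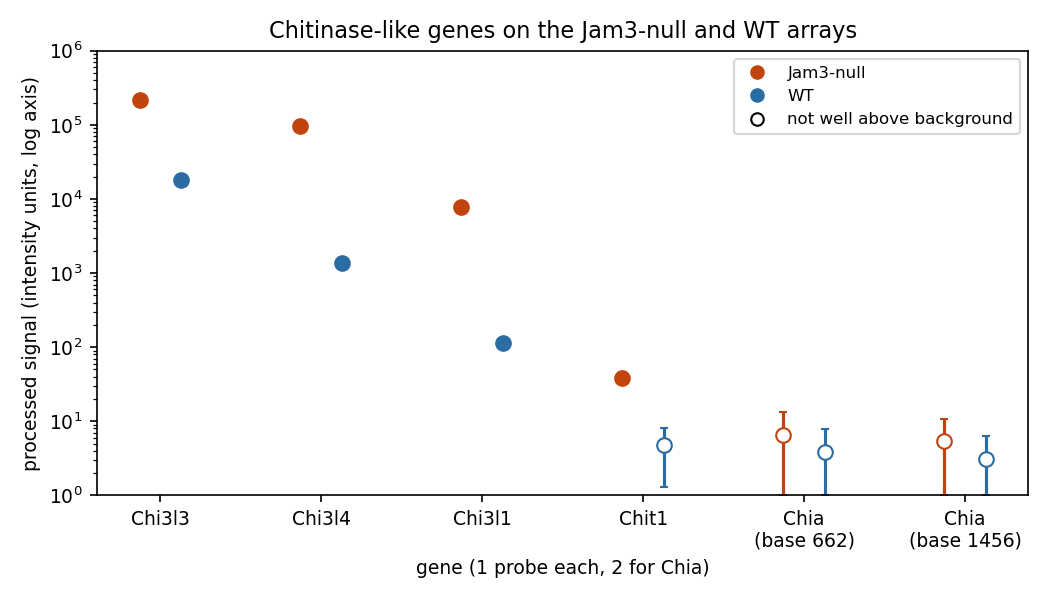
Processed signal on a log axis (intensity units) of the 6 probes of the chitinase-like genes on the Jam3-null and WT arrays, 1 spot each. Bars are the scanner software's error, smaller than the points for the bright spots, and open points were not well above background. The 3 lectins were brighter on the Jam3-null array, Chit1 was above background there alone, and both Chia probes were below background on both arrays. Levels of different probes are not comparable.

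Chit1, which encodes chitotriosidase, was read at chromosome 1, 136043151 to 136043210 (mm9), plus strand. Its signal was 38.8 ± 6.85 in Jam3-null cells and 4.74 ± 3.45 in WT cells, where the spot was not well above background. The WT value was replaced by the dimmest WT signal that counted as well above background. Chit1 was then 2.69-fold higher on the Jam3-null array (log2 bound 1.43), a bound that leaves out the error of the spot. The bound was 1.65-fold after normexp background correction. Of 488 genes seen on the Jam3-null array alone, 96.9% had a bound of at least 2-fold, and Chit1 ranked 349 among them, so its bound was among the smaller ones.

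Chia, the acidic chitinase, was read by 2 probes on chromosome 3, both below background with either genotype. The first probe, at 105931423 to 105931482 (mm9), transcript base 662, had signals of 6.62 in Jam3-null cells and 3.89 in WT cells. The probe at 105934967 to 105935026, transcript base 1456, had 5.36 in Jam3-null cells and 3.14 in WT cells. All 4 are surrogate values that the scanner software writes for dim spots, so no fold is given.

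The probes were compared with each other and not with the transcripts of the paralogs, so their likeness does not show how far the paralogs can be separated. The Chi3l4 probe and the Chia probe at base 662 share 31 of 48 overlapping bases (64.6%), and capitals mark the shared letters of these probes. In the next probe, that of Chi3l7 (Chil5), a relative discussed below, capitals mark the letters shared with the Chi3l4 probe, 20 of 40. All are written 5′ to 3′ as the array files give them.
Chi3l4: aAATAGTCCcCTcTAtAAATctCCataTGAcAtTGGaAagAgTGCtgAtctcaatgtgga
Chia, base 662: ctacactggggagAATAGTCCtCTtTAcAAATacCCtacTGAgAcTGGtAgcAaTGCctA
Chi3l7: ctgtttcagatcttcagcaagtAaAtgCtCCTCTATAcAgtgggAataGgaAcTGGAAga
The Chia probe stayed below background on the array where the Chi3l4 probe reached 96673. The Chi3l3 and second Chia probes lie near the ends of their transcripts, and the last 30 bases of each hold AATAAA, the usual polyadenylation signal, in capitals, a feature marked after the sequences were seen.
Chi3l3, last 30 bases: atgcttgtttcttgctctcacAATAAAttc
Chia, base 1456, last 30 bases: tcttccctttaaccttatgcAATAAAattg
The whole Chi3l3 and Chi3l4 probes match in 11 of 22 overlapping bases at their best ungapped placement. They lie at transcript bases 1466 and 686, in different parts of their transcripts. This match therefore does not tell whether either probe also reads the other gene's RNA.

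The promoters of Chi3l3 and Chi3l4, whose signals were both higher on the Jam3-null array, were compared in the RefSeq table for GRCm38.p6, which held all 5 members. Of the 250 bases before each start, 220 could be aligned between Chi3l3 (chromosome 3, 106167565 to 106167814, minus strand) and Chi3l4 (chromosome 3, 106219480 to 106219729, minus strand), and 201 of them matched (91.4%). Capitals mark the matching letters.
Chi3l3 promoter: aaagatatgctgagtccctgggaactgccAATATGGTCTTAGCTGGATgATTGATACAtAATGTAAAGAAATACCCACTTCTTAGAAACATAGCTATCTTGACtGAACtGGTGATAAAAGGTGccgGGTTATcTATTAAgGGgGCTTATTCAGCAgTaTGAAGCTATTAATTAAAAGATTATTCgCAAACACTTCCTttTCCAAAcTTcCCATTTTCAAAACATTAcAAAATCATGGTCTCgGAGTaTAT
Chi3l4 promoter: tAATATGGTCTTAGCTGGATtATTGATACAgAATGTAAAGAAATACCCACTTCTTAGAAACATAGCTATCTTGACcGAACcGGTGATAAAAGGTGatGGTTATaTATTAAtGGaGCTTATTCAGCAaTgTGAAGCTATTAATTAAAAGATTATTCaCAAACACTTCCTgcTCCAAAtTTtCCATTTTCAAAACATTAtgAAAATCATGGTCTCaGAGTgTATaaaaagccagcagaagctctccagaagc
The Chi3l4 and Chia promoters matched in 128 of 191 aligned bases (67.0%). The Chi3l1 promoter (chromosome 1, 134181906 to 134182155, plus strand) aligned with that of Chi3l3 over 20 bases only, and capitals mark its match to the C/EBP motif.
Chi3l1 promoter: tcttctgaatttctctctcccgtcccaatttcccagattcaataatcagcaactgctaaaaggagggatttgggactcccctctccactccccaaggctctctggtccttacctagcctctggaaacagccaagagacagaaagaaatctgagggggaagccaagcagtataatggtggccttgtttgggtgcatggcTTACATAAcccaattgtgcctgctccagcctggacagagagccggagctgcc

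The letters TTNNGNAA, bound by the C/EBP factors of myeloid cells, were sought on both strands of the windows from 250 bases before to 50 after each start. Chi3l3 held 3 matches, at 53, 37 and 27 bases before the start, Chi3l4 held 3, at 131, 66 and 56, and Chi3l1 held 1, at 52. Chit1 and Chia held 0. Of the relatives described below, BC051070, which was below background on both arrays, held 3 and Chi3l7 held 1. Of all 32851 promoters of this length, 40.7% held at least 1 such match, so a match is common. GAGGAA, the core bound by PU.1, was found in Chia alone of the members and in 28.3% of all promoters, and the STAT6 arrangement of TTC and GAA with 4 bases between them in 0 of the members and 6.95% of all. TATAAA on the gene's strand, added after the sequences were seen, lay 3 bases before the annotated start of Chi3l3, 31 before that of Chi3l4 and 43 before that of Chia, and 8.32% of all promoters held it. BC051070 also held GAGGAA and TATAAA, and Chi3l7 held neither. A match is a description of letters and not a binding site.

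The remaining genes of the chitinase family of glycosyl hydrolases were mixed. Of the 5 on the array, 3 were measured on both arrays, with 0 at least 2-fold apart and a median of -0.22, and 1, Chi3l7, was seen in Jam3-null cells alone. Ctbs, the lysosomal chitobiase, had signals of 299 in Jam3-null cells and 524 in WT cells (-0.71 ± 0.21). Chid1, a chitinase domain protein, had 437 and 544 in the same order (-0.22), and its 3 probes ran between -0.52 and -0.04. Ovgp1, the oviduct glycoprotein without chitinase activity, had 285 in Jam3-null cells and 245 in WT cells (0.31).

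The other relatives are the rodent chitinase-like genes Chi3l7 (Chil5) and BC051070 (Chil6). Chi3l7 had a signal of 273 in Jam3-null cells and 3.46 in WT cells, where the spot was not well above background, which gives a log2 bound of 4.24. The bound was 2.39 after normexp correction, and on the Jam3-null array the scanner software did not find this spot and placed it by the grid. BC051070 was below background on both arrays, at 5.18 Jam3-null and 5.66 WT.

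**Figure D2:**
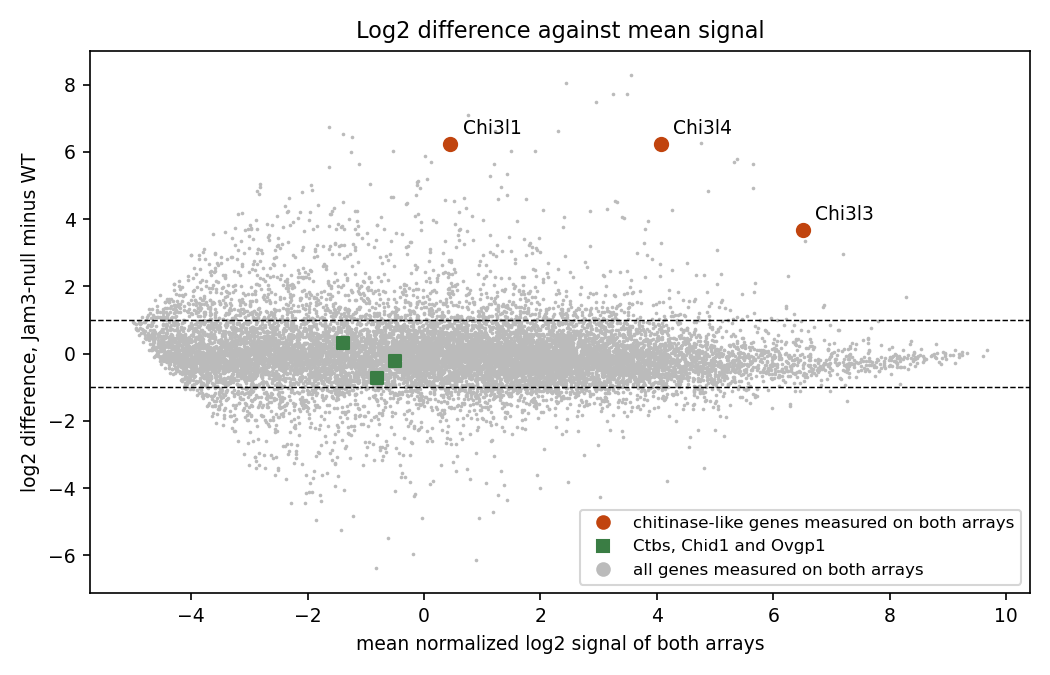
Log2 difference (Jam3-null minus WT) against the mean normalized log2 signal of the 14361 genes measured on both arrays. Dashed lines are 2-fold. Chi3l1 and Chi3l4 sit at 6.22 and Chi3l3 at 3.67, whereas Ctbs, Chid1 and Ovgp1 lie between the dashed lines.

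The members lie at 2 loci, and the genes around them were read on the array's mm9 coordinates within 250 kb of a member's probe. Around Chi3l3, Chi3l4 and Chia on chromosome 3 there were 9 other genes, of which 5 were measured on both arrays. Of these 5, 0 were at least 2-fold apart by the probe that stands for the gene. Their median was -0.20 and their range -0.89 (Wdr77) to 0.54 (Adora3, an adenosine receptor). The 4 probes of Wdr77 ran from -1.20 to -0.88, so not all of them lay within 2-fold. Tmigd3, on the same side as Adora3, was seen on the WT array alone, with 12.6 in Jam3-null cells and 230 in WT cells (log2 bound -3.06). The array files call this probe Adora3 too, and the RefSeq table names it Tmigd3. Chi3l7 lies between these genes and Chia, at -130.4 kb from the Chi3l3 probe, and is the gene seen on the Jam3-null array alone.

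Around Chit1 and Chi3l1 on chromosome 1 there were 12 other genes, of which 7 were measured on both arrays, with a median of 0.10. The 1 gene at least 2-fold higher was Btg2, an antiproliferative immediate early gene, with 4145 in Jam3-null cells and 1211 in WT cells (1.87). The genes nearest to the Chi3l1 probe were Mybph, a myosin-binding protein gene, at 10.6 kb and Adora1, another adenosine receptor gene, at 11.5 kb. Mybph had signals of 28.0 Jam3-null and 18.3 WT (0.70 ± 0.44), and Adora1 had 149 Jam3-null and 164 WT (-0.04 ± 0.21). The large difference of Chi3l1 was thus not seen in the neighbours measured within this window.

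**Figure D3:**
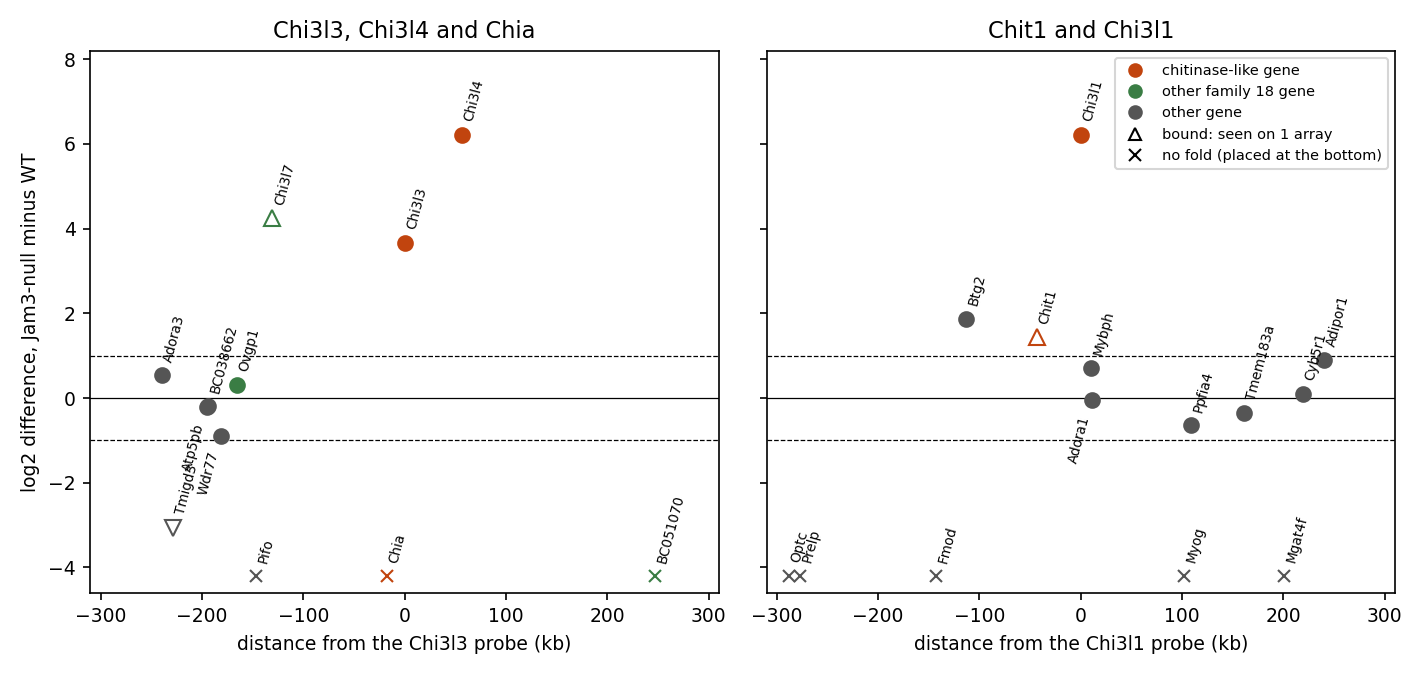
Log2 difference (Jam3-null minus WT) of genes within 250 kb of a member's probe, against the distance from the Chi3l3 probe (left) or the Chi3l1 probe (right) in kb. Triangles are bounds of genes seen on 1 array, crosses at the bottom are genes with no fold, and dashed lines are 2-fold. Apart from Chi3l7, Btg2 and Tmigd3, the neighbours with a value lie between the dashed lines.

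Enzymes that release and use N-acetylglucosamine, the unit of chitin, had a median log2 difference of 0.08 over 10 genes, all measured on both arrays. Among those named here, none was at least 2-fold apart. Hexa, a subunit gene of lysosomal hexosaminidase, had 14245 in Jam3-null cells and 11218 in WT cells (0.44). The deaminase genes Gnpda1 and Gnpda2 were at 0.48 and -0.42, the phosphodiesterase gene Nagpa at -0.56, and the kinase gene Nagk at -0.16. Gne, Oga, Renbp and Amdhd2, which make, remove or convert aminosugars, lay between -0.11 and 0.13.

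Of 6 genes for proteins reported to bind chitinase-like proteins, 5 were measured on both arrays and 1 was at least 2-fold higher. That gene was Lgals3, which encodes galectin-3, with 24563 in Jam3-null cells and 5339 in WT cells (2.30 ± 0.20). Ager, a pattern recognition receptor gene, had 91.1 Jam3-null and 51.2 WT (0.93 ± 0.24). Cd44, the hyaluronan receptor gene, was at 0.33, Tmem219, a co-receptor gene, at -0.07, and Ptgdr2, a prostaglandin D receptor gene, at 0.06. Il13ra2, which encodes the YKL-40 receptor chain, was below background on both arrays, at 6.01 Jam3-null and 3.70 WT.

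Chi3l3 and Chi3l4 are known as targets of interleukin-4 and interleukin-13 through STAT6. Of 14 genes of this pathway, 12 were measured on both arrays, with 4 past 2-fold upward, 2 past it downward and a median of 0.58. The receptor chain genes Il13ra1 and Il4ra were higher at 2.56 and 1.66, and the lower genes were the coactivator Ppargc1b (-3.55) and the nuclear receptor Pparg (-1.65). Stat6 itself was at 0.70. Il4 and Irf4 were below background on both arrays, and Il13 was dim on both, at 39.7 Jam3-null and 41.5 WT.

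Most genes listed as neutrophil granule genes, for 1 cell type that makes these lectins, were also higher on the Jam3-null array. Their part in the members' values was not tested. The list also holds S100a8 and S100a9, which encode cytosolic proteins, and Lyz2 and Cybb, which macrophages express too. Of its 18 genes, all measured on both arrays, 16 passed 2-fold upward and 0 downward. Their median was 3.33 and their range -0.90 to 6.63. The leading genes were Fcnb (6.63), Itgb2l (5.64), Olfm4 (5.13) and the cathelicidin gene Camp (4.92). Chi3l3, at 3.67, lay inside this range. Chi3l4 and Chi3l1, at 6.22, lay below Fcnb alone of the listed genes and above Itgb2l. Among 8 primary granule genes 3 passed 2-fold upward, 1 downward and 4 neither (median 0.83). The largest rise was that of the elastase gene Elane, at 4.27, and the lower gene was Cst7, at -1.87. Among 9 myeloid transcription factors 6 were at least 2-fold higher, with Cebpd at 2.70, and 1, Irf8, was lower, at -1.34.

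The alternatively activated macrophage markers were mixed. Of 14 genes 6 were measured on both arrays, 4 of them past 2-fold upward and 2 downward, with a median of 1.48. Tgm2, a transglutaminase gene, was at 5.01 and Fn1 at 3.69, while the lectin receptor gene Clec10a was at -1.75. Retnla, often found beside Chi3l3 in such macrophages, was seen on the Jam3-null array alone, with 143 Jam3-null and 8.82 WT (log2 bound 3.31). Arg1 and Mrc1, which define that state, were below background on both arrays, at 17.3 and 10.3 on the Jam3-null array and 3.43 and 5.79 on the WT array. Lipid-laden macrophages are a known source of chitotriosidase in humans. Of 10 measured macrophage lysosome and lipid genes, 4 passed 2-fold upward and 0 downward (median 0.72), led by Spp1 at 1.94.

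Among other lineages, eosinophil markers went both ways, with 2 of 5 measured genes at least 2-fold higher, 2 lower and a median of 0.14. All 4 measured mast cell and basophil markers were at least 2-fold lower, with a median of -2.74. Neither of the 2 measured B cell markers was 2-fold apart, while 1 of 4 T and NK cell, 1 of 2 erythroid and 2 of 3 megakaryocyte markers passed 2-fold upward among those measured on both arrays. The other 3 megakaryocyte markers were seen on the WT array alone, among them Itga2b, with 5.79 in Jam3-null cells and 104 in WT cells (log2 bound -1.91), and Pf4, with 7.29 in Jam3-null cells and 62.0 in WT cells (log2 bound -1.16). These bounds, named after their values were seen, lie in the opposite direction.

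**Figure D4:**
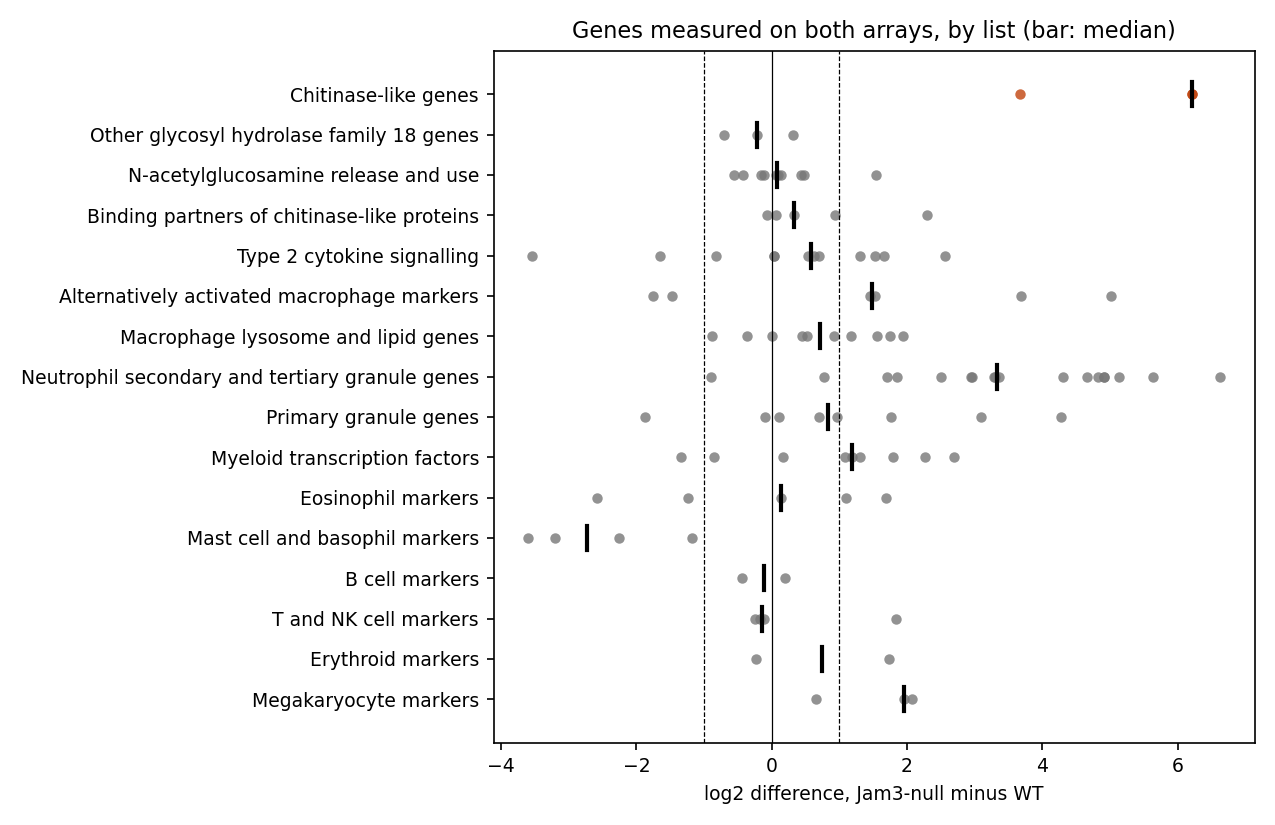
Log2 difference (Jam3-null minus WT) of every listed gene measured on both arrays, 1 line per list, with a bar at the median and dashed lines at 2-fold. The chitinase-like genes (median 6.22) lie within the range of the genes listed as neutrophil granule genes (median 3.33). Of that list, Fcnb alone lies above Chi3l4 and Chi3l1. The medians of the other relatives of the chitinase-like genes (-0.22) and of the N-acetylglucosamine genes (0.08) lie near 0.

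The genes with log2 differences nearest to those of the members, among genes brighter than the median, were named by rule. Next to Chi3l3 stood Itgam (3.71), the interferon-induced transmembrane gene Ifitm6 (3.70) and the decoy receptor gene Il1r2 (3.69) above it. Below it were, among others, 0610040J01Rik (3.65) and Smad1 (3.51). Next to Chi3l1 stood Fcnb (6.63), the acyltransferase gene Mogat2 (6.62) and the complement gene C3 (6.27) above it, and Chi3l4 (6.22), 4930438A08Rik (6.02) and the sodium channel gene Scnn1a (6.01, with 1.76 at its other probe) below it. Likeness here means 1 difference between 2 arrays, and neighbours in this order that lie within 0.29 of each other do not differ beyond the measurement error.

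**Figure D5:**
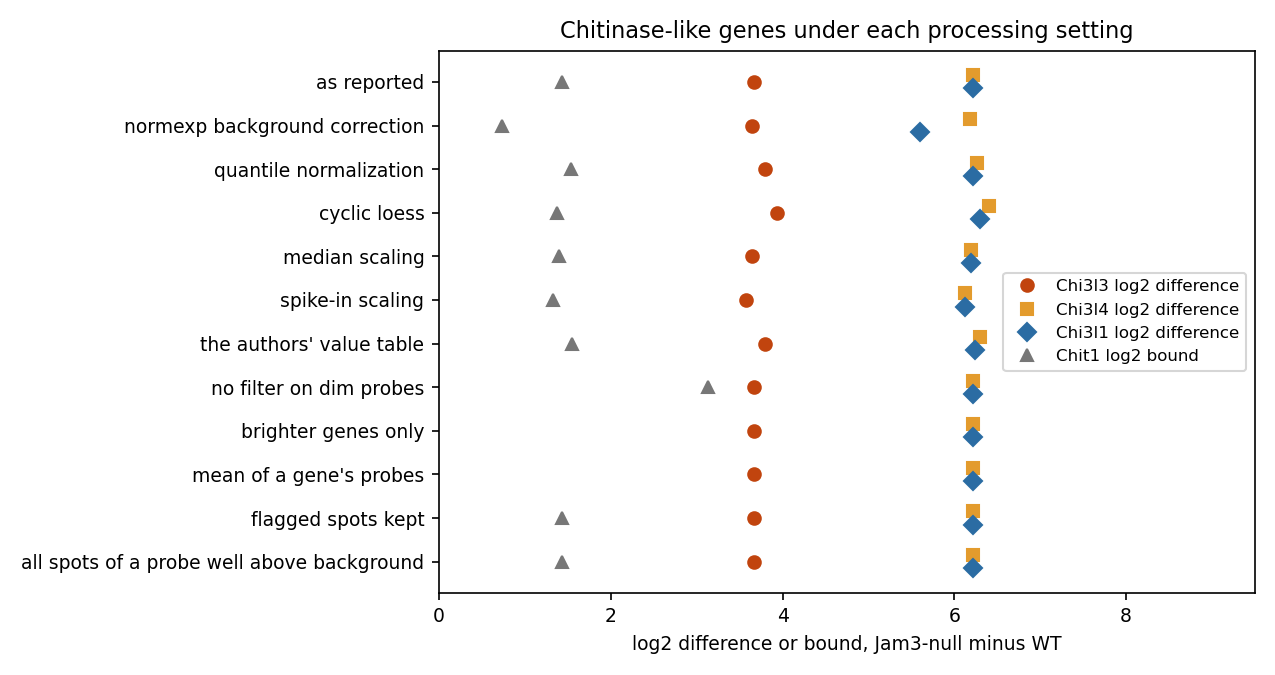
Log2 difference or, for Chit1, log2 bound (Jam3-null minus WT) of the chitinase-like genes under each processing setting, 1 line per setting. Chi3l4 stays between 6.12 and 6.41 and Chi3l3 between 3.57 and 3.94, while Chi3l1 drops to 5.60 and Chit1 to 0.73 after normexp correction; the Chit1 point without a filter (3.13) is a plain difference, not a bound.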

How the data were processed

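Total RNA was amplified, labelled with Cy3 and hybridised to 1 array per genotype, per the labels' protocols. The scanner images were read with Agilent Feature Extraction, whose version is 10.7.3.1 per the file headers and 10.7 per the submitters' processing notes, and the deposited processed intensity is background-subtracted and detrended on a linear scale. The authors' value table holds log2 values with a median of 5.66 in both columns. Once sorted, the columns differ by at most 0.00038, so they share nearly 1 distribution, as quantile normalization leaves it. No source used here names the normalization. The values followed the log2 processed signals (r 0.999 over probes), so their direction and scale are known, and they served as an alternative. The file headers give 1 slide and 1 scan for both genotypes.

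Spots flagged as outliers were left out (151 on the Jam3-null and 163 on the WT array), and no spot was saturated. Each processed signal was divided by its array's 75th percentile (667.8 Jam3-null, 713.9 WT) and put on the log2 scale, spots of 1 probe were averaged, and a gene took its probe with the highest mean signal. A probe counted as well above background where most of its spots were. The rule used first asked for all spots; it was changed after the counts had been seen, and both counts are given below. A gene seen on 1 array only gives a bound, without an error, against the dimmest signal that passed on the other. Errors are those of the scanner software's error model. Probes were named through a RefSeq table (GRCm38.p6) by accession, symbol or older symbol, and 7449 kept the file's name; coordinates of probes are mm9. Protein sequences were not used here.

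Members and gene lists were chosen with earlier results of these data known. The text names every member, relative, N-acetylglucosamine and partner gene, genes within 250 kb, up to 4 genes of each other list by absolute difference, and the 3 nearest differences on each side of Chi3l3 and Chi3l1; of these some are given in a figure or a count only, and some items are not reported here. Values of Jam3, Itgam, Kit, Arg1, Mrc1, Retnla, Stat6, Il4, Irf4 and Il13 were added for the genes' roles. The gene-level step was tested on simulated data. Alternatives were normexp correction (offset 50), quantile, cyclic loess, median and spike-in scaling, the authors' table, other filters, probe means, fold thresholds of 1.5 and 3, kept flagged spots and, added later, the all-spots rule. Tools were Python 3.11.15 with biopython 1.88, matplotlib 3.10.9, pandas 2.3.3 and numpy 2.4.6, and limma 3.58.1 in R 4.3.3.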

Additional observations from a re-analysis of the deposited data

How the results depend on the processing

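Under 11 alternatives, Chi3l1 lay between 5.60 and 6.30, Chi3l3 between 3.57 and 3.94, and Chi3l4 between 6.12 and 6.41. Chi3l1 at 5.60 after normexp correction and Chi3l3 at 3.94 after cyclic loess moved by more than the ± of their log2 differences. All settings process the same spots and share that error, so it serves here as a size only. The Chit1 bound was 0.73 after normexp correction, and 3.13 without a filter on dim probes, where it is a plain difference. Genes past 2-fold upward and downward in Jam3-null cells, 1473 and 1234 as reported, numbered 2828 and 2920 without a filter, 521 and 567 among brighter genes only, 2647 and 2917 at 1.5-fold, and 709 and 421 at 3-fold; these sets differ in size or threshold by construction. The balance of directions changed with the scaling: 1296 higher and 1543 lower with spike-in scaling, where the median of all genes was -0.18, and 1761 and 985 with cyclic loess. The megakaryocyte median was -0.02 without a filter, against 1.96 as reported; the cause was not tested. Of the lists' other values, 355 counts and 145 medians stayed close and 35 counts and 16 medians moved. Where all spots of a probe had to be well above background, 14356 genes were compared, with 1471 higher and 1234 lower, and no member's value changed. No paired analysis was possible because each genotype has 1 array. Chit1 and Chi3l7, seen on 1 array, have only a bound, and Chia and BC051070, below background on both, have no fold.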
